A study of Homo sapiens with 12 samples.

Results

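Cytochrome P450 monooxygenases (CYP), UDP-glucuronosyltransferases (UGT) and sulfotransferases (SULT) of Huh7 cells, a human hepatocellular carcinoma line, were examined across 4 groups. Members were chosen by gene symbol, as a family letter code followed by a subfamily and a number, without the CYP1 genes and CYP51A1, and needed at least 1 count in at least 3 samples. The deposited table has 63677 genes. Of these, 97 matched the symbols, 33 were left out for counts in fewer than 3 samples, and 64 were kept: 40 CYP, 15 UGT and 9 SULT genes. The groups were cells with no treatment, cells given graphene oxide (GO) at 400 µg/mL, GO carrying the ginseng saponin ginsenoside Rg3 (GO-Rg3) at 400 µg/mL, and GO-Rg3 loaded with the anthracycline doxorubicin (GO-Rg3-DOX) at 100 µg/mL. All 12 samples, 3 per group, came from this 1 line, and the treatments lasted 6 h. Because GO-Rg3-DOX was given at another dose, its values stand beside those of the other 2 materials without a comparison between them. Cells given free DOX were not analysed here.

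CYP enzymes are heme proteins that oxidize drugs, sterols, fatty acids, retinoids and vitamin D, with electrons supplied by a reductase. UGT enzymes attach glucuronic acid, and SULT enzymes a sulfate group, to drugs, bile acids, bilirubin and steroid hormones, which makes them more soluble for export. The liver is a main site of all 3 classes, and hepatoma lines keep them to differing degrees.

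Counts per sample totalled 27802871 to 38877420. All 10 hepatocyte markers examined were above 10 counts per 1e6 counts (CPM) in every sample, and 9 of 10 markers of blood, endothelial, mesenchymal and squamous cells were under 1 CPM in every sample. The summed level of the hepatocyte markers ranged over samples from 24000 to 24140 CPM in untreated cells, 15200 to 18300 with GO, 18620 to 22290 with GO-Rg3 and 31780 to 37130 with GO-Rg3-DOX. These marker values are CPM after TMM scaling of the libraries. The differences between the sums depend on that scaling, and the sums were not taken per library total. Mitochondrial genes took 5.81% ± 0.489 (SD, n = 3) of the counts in untreated cells, 17.0% ± 6.28 in GO, 7.24% ± 0.301 in GO-Rg3 and 15.4% ± 3.52 in GO-Rg3-DOX samples. Within their groups the highest shares were in GO replicate 1 (24.1%, beside 12.1% and 14.8%) and GO-Rg3-DOX replicate 1 (19.4%, beside 13.9% and 12.8%). The part of these shifts in the results was not tested. In bulk RNA, fewer expressing cells and less RNA per cell cannot be told apart.

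The promoter windows of 4 members that changed in the comparisons are shown first. Each window is the 250 bases upstream of a RefSeq transcript start in GRCh38.p14, written 5′ to 3′ on the gene's strand. Windows were looked up only for the 43 members with 10 or more counts in 3 or more samples. Of these, 34 had at least 1 window. Matches, on either strand, to 3 motifs are in capitals: the TATA box core TATAAA, the nuclear receptor half-site AGGTCA and CAAAGTCCA, a binding word of HNF4A. CYP2C8 lies at chr10:95069498-95069747 on the minus strand and holds CAAAGTCCA 53 bases and TATAAA 31 bases before the start. CYP39A1, at chr6:46652819-46653068 on the minus strand, holds no match. SULT1C2, at chr2:108288645-108288894 on the plus strand, holds AGGTCA 59 bases before the start. UGT2B15, at chr4:68670653-68670902 on the minus strand, holds AGGTCA at 217 and 143 bases.
CYP2C8: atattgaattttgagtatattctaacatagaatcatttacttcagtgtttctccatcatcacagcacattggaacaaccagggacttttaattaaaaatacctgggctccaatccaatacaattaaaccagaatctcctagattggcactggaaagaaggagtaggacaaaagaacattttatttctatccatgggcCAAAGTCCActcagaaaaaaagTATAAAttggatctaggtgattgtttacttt
CYP39A1: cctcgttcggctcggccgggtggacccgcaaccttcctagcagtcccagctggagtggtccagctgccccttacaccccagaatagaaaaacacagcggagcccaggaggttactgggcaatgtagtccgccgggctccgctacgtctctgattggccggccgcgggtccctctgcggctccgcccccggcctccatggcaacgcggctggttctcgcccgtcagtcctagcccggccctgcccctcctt
SULT1C2: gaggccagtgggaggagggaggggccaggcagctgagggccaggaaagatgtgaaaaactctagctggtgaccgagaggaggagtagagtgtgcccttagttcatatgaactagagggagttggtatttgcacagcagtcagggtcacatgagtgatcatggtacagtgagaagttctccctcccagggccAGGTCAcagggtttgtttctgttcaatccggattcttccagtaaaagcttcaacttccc
UGT2B15: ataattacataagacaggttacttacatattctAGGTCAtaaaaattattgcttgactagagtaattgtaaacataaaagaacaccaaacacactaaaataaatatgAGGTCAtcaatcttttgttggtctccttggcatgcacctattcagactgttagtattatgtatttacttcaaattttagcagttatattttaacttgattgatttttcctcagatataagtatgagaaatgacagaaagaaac

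Over 35116 windows of the same length, TATAAA was in 10.7%, AGGTCA in 12.1% and CAAAGTCCA in 0.325%. Among 45 windows of those 34 members, 14 held TATAAA (31.1%), 13 held AGGTCA (28.9%) and 3 held CAAAGTCCA (6.67%). Those 3 were of CYP2B6, CYP2C8 and CYP2R1. A match is a description of the letters and not a binding site.

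Levels are CPM after TMM scaling of the libraries. A count filter (10 or more counts in 3 or more samples) kept 43 members, 25 CYP, 10 UGT and 8 SULT, and no member passed through samples of 1 group alone. CYP26C1 passed through treated samples only, with 12 and 10 counts in GO replicates 2 and 3 and 13 in GO-Rg3-DOX replicate 2. Compared per length, as CPM per kb of exon in untreated cells, CYP27A1, the mitochondrial sterol hydroxylase of bile acid synthesis, was highest at 14.7. It was followed by SULT2A1, which sulfates dehydroepiandrosterone and bile acids, at 8.80, by CYP26B1, a retinoic acid hydroxylase, at 8.15, by SULT1C4, a sulfotransferase of the fetal liver, at 6.91, and by CYP2B6, which metabolizes bupropion and cyclophosphamide, at 5.93 CPM per kb. The phenol sulfotransferase SULT1A1 had 4.70 and the arachidonic acid epoxygenase CYP2J2 4.13 CPM per kb. The samples of CYP2J2 overlapped those of SULT1E1, an estrogen sulfotransferase, those of SULT1E1 overlapped CYP4F12, a fatty acid hydroxylase, and those of CYP4F12 overlapped CYP39A1, an oxysterol hydroxylase of bile acid synthesis. The highest UGT was UGT2B4, which glucuronidates bile acids, at 2.36 CPM per kb, and the lowest member that passed was CYP26C1, another retinoic acid hydroxylase, at 0.0221.

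**Figure D1:**
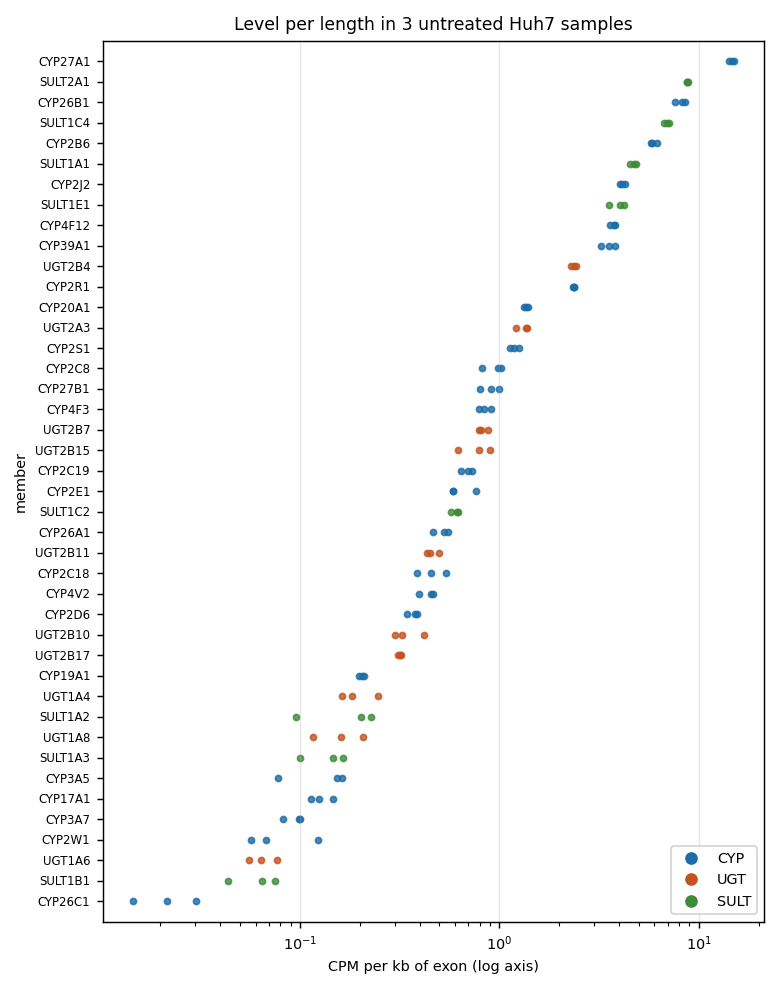
Level of members that passed the count filter in the 3 untreated samples, as CPM per kb of exon on a log axis, 1 point per sample and coloured by class. CYP27A1 is highest at a mean of 14.7 and CYP26C1 lowest at 0.0221.

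The other 21 members were nearly silent, with at most 23 counts in any sample. They were CYP24A1, CYP27C1, CYP2A6, CYP2A7, CYP2F1, CYP2U1, CYP3A4, CYP3A43, CYP46A1, CYP4B1, CYP4F11, CYP4F2, CYP7A1, CYP7B1, CYP8B1, SULT2B1, UGT1A10, UGT1A7, UGT2B28, UGT3A1 and UGT3A2. CYP3A4, the main drug-oxidizing P450 of adult liver, had 2, 2 and 4 counts in the untreated samples and no more than 6 in any sample. CYP7A1, CYP8B1 and UGT3A2 are named here after their counts were seen. CYP7A1, the rate-limiting enzyme of bile acid synthesis, had 0, 0 and 0 counts in untreated cells and 2, 4 and 5 after GO-Rg3-DOX. CYP8B1, which directs synthesis to cholic acid, had 2, 1 and 6 counts in untreated cells and 4, 16 and 23 after GO-Rg3-DOX, and UGT3A2 had 0 in every other sample and 4, 3 and 2 after GO-Rg3-DOX. CYP2F1, with 3 counts in all, lay just inside the rule of 3 samples, and 8 genes with counts in 1 or 2 samples just outside it. None of the 21 was tested with the count filter in place, and counts of PCR-amplified reads cover counting error only.

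Some counts cannot be given to 1 gene. The UGT1A genes share their last exons, and 50.1% to 64.7% of the exon bases of the 3 that passed lie in other genes. The identifier listed as UGT1A8 belongs to UGT1A1, the bilirubin transferase, in the GENCODE annotation. SULT1A3 has a near-identical copy, SULT1A4, and shares 70.7% of its exon bases with a readthrough gene. Other genes on the same strand take part of the exon bases of CYP3A7 (42.6%), CYP2C18 (40.3%), CYP2C19 (31.0%, with a part on the opposite strand), CYP26A1 (25.3%), SULT1E1 (24.1%), SULT1A1 (23.1%), SULT1A2 (22.1%) and CYP26C1 (18.9%). CYP17A1 overlaps WBP1L over 41.9%, CYP2E1 other genes over 25.8% and UGT2B11 another over 18.5%, all on the opposite strand, and the sources used here do not say whether the counting used the strand. The values of all these genes are uncertain to that extent.

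The first comparison asked what GO alone changed. After GO, 5 members fell and 1 rose, where a call needs a Benjamini-Hochberg adjusted p (over 17092 genes) under 0.01 in the quasi-likelihood test of edgeR and a log2 fold change past 1 in either direction. The members that fell were CYP2C8 and CYP39A1 and the transferases UGT2A3, UGT2B10 and UGT2B17, and SULT1C2 rose. The 5 are 11.6% of the 43 members, against 2.62% of all genes tested that were called lower. The 1 that rose is 2.33%, against 3.84% of all genes. The median log2 fold change of the 43 was -0.30, and that of all genes 0.01 (-0.17 and -0.02 with an offset for GC content, described below).

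CYP2C8, which oxidizes paclitaxel and arachidonic acid, had 2.06, 2.46 and 2.57 CPM in the untreated samples and 0.940, 0.910 and 0.990 after GO. The groups did not overlap, and the level was 2.49-fold lower (log2 fold change -1.32 ± 0.18 SE, edgeR's quasi-likelihood test, Benjamini-Hochberg adjusted p = 6.13e-05). It lies on chromosome 10 (GRCh37, 96796529 to 96829254). After GO-Rg3, CYP2C8 had 1.81, 2.38 and 2.37 CPM, a range that overlapped the untreated one, and GO-Rg3 was higher than GO by 1.20 ± 0.18 on the log2 scale (edgeR, adjusted p = 0.000333). After GO-Rg3-DOX it had 3.58, 3.27 and 3.36 CPM, with a log2 fold change of 0.52 against untreated cells, below the fold threshold.

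CYP39A1, at chromosome 6 (GRCh37, 46517317 to 46620567), had 10.03, 11.80 and 11.05 CPM in untreated samples and 4.15, 6.02 and 4.64 after GO. All 3 GO samples were below all untreated ones (log2 fold change -1.14 ± 0.17, edgeR, adjusted p = 0.000126). After GO-Rg3 it had 8.27, 9.84 and 8.70 CPM, each below the lowest untreated sample, and the difference from untreated cells did not pass the test at -0.29. GO-Rg3 was 0.85 above GO on the log2 scale, below the fold threshold. CYP27A1 was at 43.8 ± 1.27 CPM in untreated cells and 50.8 ± 3.29 after GO (log2 fold change 0.21).

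Among the other P450 groups no gene was called after GO. Among those with an adjusted p under 0.01, CYP2S1, a P450 of disputed substrates, came closest. It had 3.07, 3.42 and 3.20 CPM in untreated cells and 7.48, 5.16 and 6.40 after GO. Its log2 fold change of 0.97 ± 0.19 had an adjusted p of 0.000954 in edgeR's test and lay just under the fold threshold, and it was called without untreated replicate 2 (1.01) or GO replicate 2 (1.10). CYP26C1 and CYP2W1 passed the fold threshold (1.49 and 1.01) but not that of adjusted p (0.0225 and 0.078, edgeR). CYP26C1 had 0.132, 0.0639 and 0.0942 CPM in untreated cells and 0.235, 0.321 and 0.283 after GO, without overlap. CYP2B6 had 22.1 ± 0.863 CPM in untreated cells and 33.8 ± 4.53 after GO, and the samples did not overlap (log2 fold change 0.61, edgeR, adjusted p = 0.00255). CYP2J2 had 12.3 ± 0.362 and 9.04 ± 1.28 CPM (log2 fold change -0.45), CYP4F12 18.9 ± 0.576 and 19.8 ± 2.93 (0.07), CYP26B1 39.4 ± 2.28 and 47.6 ± 3.87 (0.27), and CYP20A1, an orphan P450, 14.5 ± 0.304 and 12.2 ± 0.728 (-0.25).

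The UGT class lay lowest after GO. Its 10 tested genes had log2 fold changes from -1.41 to -0.22, with a median of -0.83. All 10 were below 0 under TMM scaling, and 9 of 10 with an offset for GC content. RLE and library-total scaling move all genes by about the same amount. They took the median of all genes from 0.008 to 0.029 and -0.108, and so could not bring any of the 10 above 0. UGT2B17, which glucuronidates testosterone, had 0.820, 0.831 and 0.801 CPM in untreated cells and 0.313, 0.294 and 0.311 after GO (log2 fold change -1.41 ± 0.31, edgeR, adjusted p = 0.00248). The GO samples did not overlap the untreated ones. Without GO replicate 2 or GO replicate 3 the adjusted p of UGT2B17 was 0.0102 or 0.0103 and the call was lost.

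UGT2A3, a transferase of bile acids, had 4.23, 3.74 and 4.19 CPM in untreated cells and 0.862, 2.33 and 1.90 after GO, with GO replicate 1 far below the others. Its log2 fold change was -1.22 ± 0.25 (edgeR, adjusted p = 0.00132), and -0.94 without GO replicate 1, which ended the call. UGT2B10, which glucuronidates tertiary amines such as nicotine, had 0.899, 1.15 and 0.824 CPM in untreated cells and 0.313, 0.455 and 0.566 after GO. It fell by 1.06 on the log2 scale (edgeR, adjusted p = 0.00585), a call lost on leaving out untreated replicate 1, 2 or 3 or GO replicate 1 or 2, with adjusted p of 0.0103 to 0.0291. UGT2B4 had 5.88 ± 0.194 CPM in untreated cells and 3.83 ± 0.643 after GO, and UGT2B7, a transferase of morphine and bile acids, 1.87 ± 0.101 and 1.34 ± 0.119. UGT2A3, UGT2B10 and UGT2B17 lie with UGT2B15, UGT2B7, UGT2B11 and UGT2B4 on chromosome 4 (GRCh37), between 69402891 and 70391732. Summed over 15 genes, the UGT level was 17.9 ± 0.266 CPM in untreated cells and 10.6 ± 2.08 after GO.

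In the SULT class, SULT1C2, a sulfotransferase of phenols, had 4.79, 5.24 and 5.16 CPM in untreated cells and 10.4, 11.2 and 13.2 after GO. All GO samples were above all others of the study (log2 fold change 1.20 ± 0.17, edgeR, adjusted p = 8.39e-05). After GO-Rg3 it had 3.16, 5.11 and 5.12 CPM, lower than GO by 1.38 on the log2 scale (-1.38 ± 0.17, edgeR, adjusted p = 7.31e-05), and after GO-Rg3-DOX 4.66, 5.71 and 5.95. SULT1C2 lies on chromosome 2 (GRCh37, 108905095 to 108926371). SULT1C4, downstream of it at 108994367 to 109005445, had 26.5 ± 0.775 CPM in untreated cells and 31.2 ± 1.94 after GO. SULT2A1 had 16.8 ± 0.112 and 11.003 ± 0.473 CPM (log2 fold change -0.61, edgeR, adjusted p = 0.000753), SULT1A1 39.2 ± 1.47 and 40.9 ± 2.69, and SULT1E1 8.24 ± 0.731 and 5.53 ± 0.732.

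**Figure D2:**
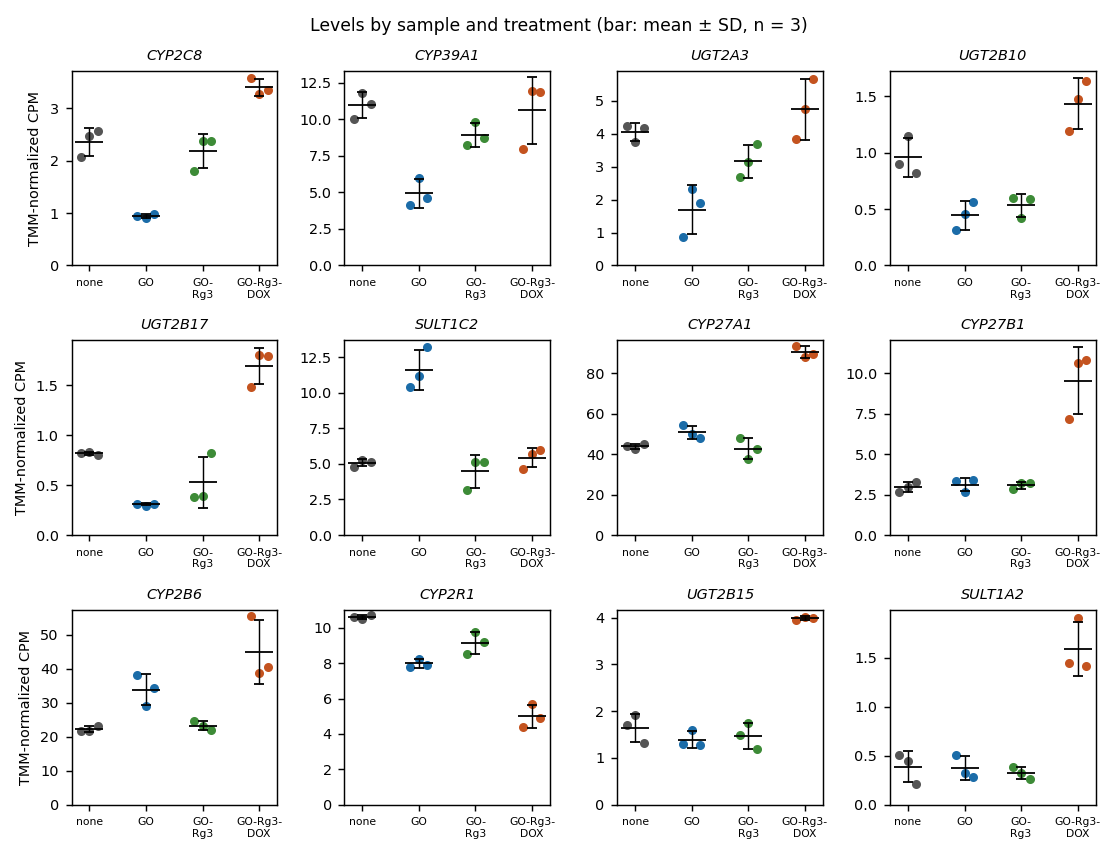
TMM-normalized CPM of 12 members in each of the 12 samples by treatment (none, GO, GO-Rg3, GO-Rg3-DOX), with the mean and SD of 3 samples as bars and axes from 0. CYP2C8 is lowest in the 3 GO samples (0.910 to 0.990 CPM), SULT1C2 highest there (10.4 to 13.2), and CYP27A1 highest after GO-Rg3-DOX (87.9 to 93.6).

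The fold changes after GO varied with the GC content of the transcripts. Across 16622 genes Spearman's rho between log2 fold change and GC content was 0.43, a description across genes that share the same libraries. The median log2 fold change was -0.42 in the tenth of genes with a median GC content of 36.6% and 0.41 in that of 63.6%. The median GC content was 39.6% for the 10 UGT genes, 45.4% for the CYP and 44.6% for the SULT genes, and 47.8% for all genes. With a GC content offset 3 of the 6 calls were made, CYP2C8, UGT2B17 and SULT1C2, while CYP39A1, UGT2A3 and UGT2B10 had log2 fold changes of -0.84, -0.88 and -0.75. Of the 17092 genes 601 were then called higher and 296 lower. With library totals alone the calls over all genes went from 657 higher and 448 lower to 476 higher and 695 lower.

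**Figure D3:**
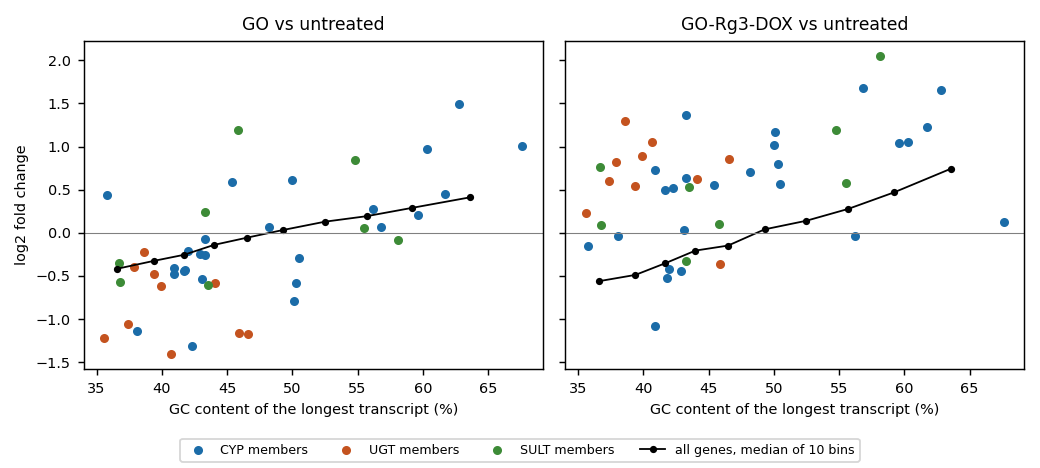
Log2 fold change against the GC content (%) of the longest transcript for the 43 members, coloured by class, for GO and GO-Rg3-DOX, each against untreated cells. The black line joins the medians of all genes in 10 bins of GC content and rises from -0.42 to 0.41 after GO and from -0.56 to 0.75 after GO-Rg3-DOX, and the UGT points lie at GC contents of 35.6% to 46.6%.

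GO-Rg3 at the same dose was compared with untreated cells to see what the coated material changed. No member was called in either direction by edgeR's quasi-likelihood test, against 0.0117% of all genes called higher and 0.0468% called lower. DESeq2 called no member either, and over all 17092 genes it called 5 higher and 32 lower. At an unadjusted p below 0.05 in edgeR's test there were 5 members (11.6%, against 13.4% of all genes), CYP19A1, CYP4F12, SULT1E1, UGT2B10 and UGT2B17. The most extreme by p was CYP19A1, aromatase of estrogen synthesis, with 1.77, 1.66 and 1.72 CPM in untreated cells and 1.08, 1.22 and 0.952 after GO-Rg3 (log2 fold change -0.67, edgeR, adjusted p = 0.0884). The median of the 43 was -0.16, with 30 below 0, and that of all genes -0.001. The UGT sum was 15.2 ± 1.84 CPM, and at most 16.2 in a sample, beside at least 17.6 in untreated samples. Calls over all genes were 2 higher and 8 lower, and 4 higher and 6 lower with RLE scaling.

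GO-Rg3 was also set against GO at 400 µg/mL. CYP2C8 rose (2.33% of the members, 0.702% of all genes called higher) and SULT1C2 fell (2.33%, 2.07% of all genes called lower), with the values above. This comparison and that of GO with untreated cells share the GO samples, so their values are given side by side. CYP2C8 had -1.32 for GO against untreated cells and 1.20 for GO-Rg3 against GO, CYP39A1 -1.14 and 0.85, UGT2A3 -1.22 and 0.86, UGT2B17 -1.41 and 0.81, UGT2B10 -1.06 and 0.25, CYP2S1 0.97 and -0.64, and SULT1C2 1.20 and -1.38. For CYP39A1, UGT2A3, UGT2B10, UGT2B17 and CYP2S1 the difference between GO-Rg3 and GO was not called. The median of the 10 UGT genes was 0.40, all above 0, beside -0.02 for all genes, and with a GC content offset 0.21, 9 of 10 above 0, beside 0.02. Across genes Spearman's rho between GC content and this log2 fold change was -0.43. Without GO replicate 2, 4 members were called, CYP2C8, CYP39A1 (1.02) and UGT2A3 (1.15) higher and SULT1C2 lower. With library totals alone the calls over all genes went from 120 higher and 353 lower to 220 higher and 231 lower.

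**Figure D4:**
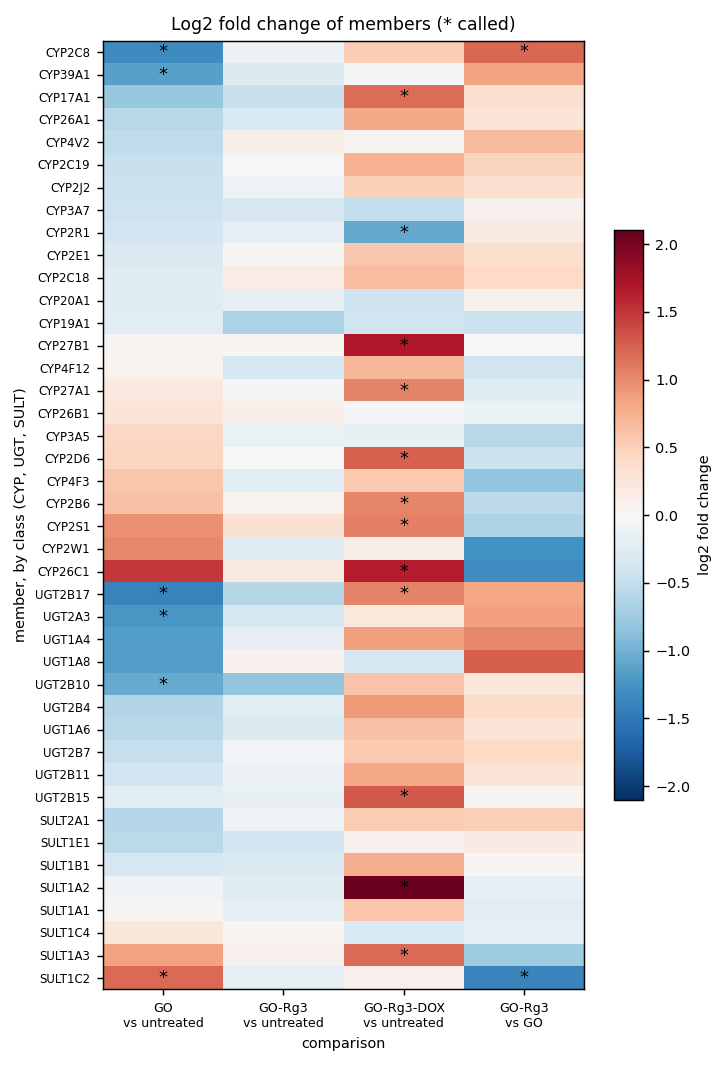
Log2 fold change of members that passed the filter (rows, by class) in 4 comparisons (columns), from blue (lower) to red (higher), with an asterisk where a gene was called. With GO 5 members fell and 1 rose, with GO-Rg3 none was called, and after GO-Rg3-DOX SULT1A2 has the largest rise (2.05) and CYP2R1 the largest fall (-1.08) under TMM scaling, both also called with library totals alone.

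After GO-Rg3-DOX, 12 members rose and CYP2R1 fell against untreated cells. Those that rose included SULT1A2, CYP27B1, CYP26C1, UGT2B15, CYP2D6, SULT1A3, CYP17A1, CYP2S1, UGT2B17, CYP27A1 and CYP2B6. The 12 are 27.9% of the 43, against 12.6% of all genes called higher, and the 1 that fell is 2.33%, against 18.2% of all genes called lower. The median log2 fold change was 0.60 for the members and -0.06 for all genes. The size of these changes depended on the scaling. With library totals alone the median of all genes was -0.47 and that of the members 0.19. A change of scaling moves all genes by about the same amount. The difference between the medians (0.66, and 0.65 under TMM) was therefore bound to stay and says nothing about the scaling. Under library totals 2 of the 43 members rose, CYP27B1 and SULT1A2, and CYP2R1 fell. Of the 17092 genes 1029 were then called higher and 4937 lower, in place of 2159 and 3103. The larger share of members called higher under TMM was not kept under library totals.

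**Figure D5:**
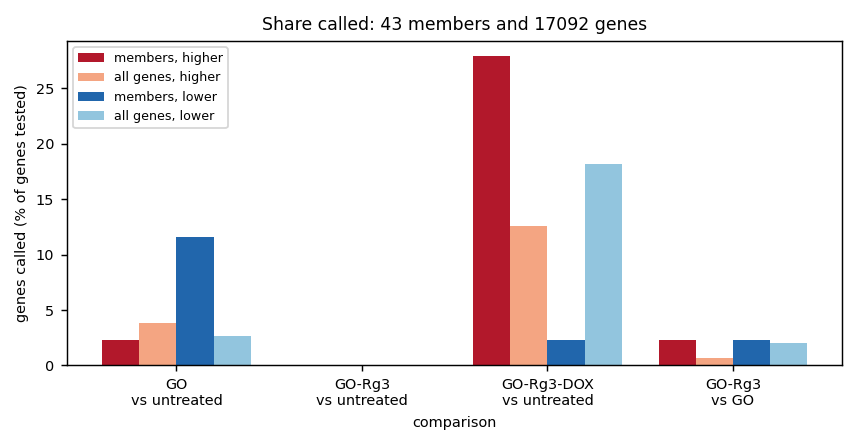
Share of genes called higher and lower (%) among the 43 members that passed the filter and among all 17092 genes tested, for 4 comparisons, with bars from 0. After GO-Rg3-DOX 27.9% of the members were called higher and 2.33% lower, beside 12.6% and 18.2% of all genes, under TMM scaling. With library totals alone, not shown, 2 of the 43 members and 1029 of the 17092 genes were called higher.

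Both genes listed as vitamin D P450 enzymes that passed were called under TMM scaling, in opposite directions. Of all genes 12.6% were called higher and 18.2% lower, and 2 genes are too few to set against these shares. CYP27B1, which makes the active hormone, had 2.65, 2.97 and 3.27 CPM in untreated cells and 7.17, 10.6 and 10.8 after GO-Rg3-DOX. The groups were far apart (log2 fold change 1.68 ± 0.17, edgeR, adjusted p = 4.94e-07), and the gene was called under every alternative, each left-out sample included. CYP2R1, which carries out the first hydroxylation in the liver, had 10.6, 10.5 and 10.7 CPM in untreated cells and 4.41, 5.71 and 4.88 after GO-Rg3-DOX (log2 fold change -1.08 ± 0.12, edgeR, adjusted p = 1.34e-06). With a GC content offset its change was -0.64 and not called. CYP27B1 was at 3.11 ± 0.405 CPM after GO and 3.07 ± 0.225 after GO-Rg3, and CYP2R1 at 7.99 ± 0.244 and 9.17 ± 0.630.

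Among the xenobiotic P450 genes CYP2B6 and CYP2D6 rose. CYP2D6, which metabolizes codeine and many antidepressants, had 0.873, 0.895 and 0.801 CPM in untreated cells and 1.57, 2.26 and 2.17 after GO-Rg3-DOX, without overlap (log2 fold change 1.23 ± 0.21, edgeR, adjusted p = 9.12e-05). CYP2B6 had 21.7, 21.6 and 23.1 CPM and then 55.7, 38.6 and 40.4, a log2 fold change of 1.02 ± 0.14 that was 0.84 without GO-Rg3-DOX replicate 1, which ended the call. CYP2E1, which oxidizes ethanol, had 6.20 ± 0.971 CPM and then 9.21 ± 1.24, and CYP2C19 4.31 ± 0.264 and then 7.11 ± 1.27. For these a log2 fold change of 0.57 and 0.72 was below the fold threshold.

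CYP27A1 had 43.9, 42.5 and 45.1 CPM in untreated cells and 93.6, 87.9 and 89.6 after GO-Rg3-DOX, the tightest of the higher groups relative to its level among the P450 genes called (log2 fold change 1.04 ± 0.10, edgeR, adjusted p = 3.02e-07). CYP39A1 was at 10.6 ± 2.27 CPM, beside 10.96 ± 0.888 in untreated cells. CYP17A1, the steroid hydroxylase and lyase of androgen synthesis, had 0.423, 0.384 and 0.495 CPM and then 1.28, 0.755 and 0.953 (1.17 ± 0.30, edgeR, adjusted p = 0.00295). Its call was lost without untreated replicate 1 or 2 or GO-Rg3-DOX replicate 1 (adjusted p of 0.0118, 0.0128 and 0.0185). CYP26C1 passed the count filter only through GO and GO-Rg3-DOX samples. It had 0.132, 0.0639 and 0.0942 CPM and then 0.330, 0.467 and 0.153 (1.66 ± 0.49, edgeR, adjusted p = 0.00805). This call was kept only without GO-Rg3-DOX replicate 3 among the 6 samples left out, the others giving adjusted p of 0.0116 to 0.0651, and of the other settings RLE scaling alone kept it (adjusted p of 0.0108 with a replicate block).

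CYP26B1 stayed within its spread at 38.6 ± 2.89 CPM, beside 39.4 ± 2.28 in untreated cells, and CYP26A1, the third retinoic acid hydroxylase, was at 2.67 ± 0.464 beside 1.53 ± 0.140. CYP2S1 had 8.57, 5.93 and 5.72 CPM, all above the untreated samples (1.06 ± 0.19, edgeR, adjusted p = 0.000163), and 0.85 without GO-Rg3-DOX replicate 1, when it was not called. The fatty acid P450 genes were not called. CYP4F12 was at 30.8 ± 1.91 CPM (log2 fold change 0.70), CYP2J2 at 17.4 ± 1.71 (0.50), CYP4F3, a leukotriene hydroxylase, at 6.89 ± 1.29 (0.55) and CYP4V2, mutated in a retinal dystrophy, at 4.38 ± 0.760 (0.03). CYP20A1 was at 10.7 ± 0.345 CPM (-0.44). Summed over 40 genes, the CYP level was 213 ± 5.22 CPM in untreated cells, 227 ± 8.55 with GO, 207 ± 9.20 with GO-Rg3 and 319 ± 4.20 with GO-Rg3-DOX. Per library total these sums were 233 ± 5.20, 228 ± 23.1, 231 ± 9.34 and 261 ± 21.4 CPM. The mean after GO was then below that of untreated cells by less than its SD. Under TMM the untreated and GO samples overlapped (209 to 219 and 218 to 236 CPM), so these sums give no direction after GO.

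UGT2B15, which glucuronidates dihydrotestosterone and holds 2 half-sites in the window printed above, had 1.69, 1.92 and 1.32 CPM in untreated cells and 3.96, 4.03 and 4.00 after GO-Rg3-DOX. The 3 treated samples were nearly equal and far above the rest (log2 fold change 1.29 ± 0.18, edgeR, adjusted p = 1.46e-05). UGT2B17 had 1.48, 1.80 and 1.79 CPM (1.05 ± 0.25, edgeR, adjusted p = 0.00171), above the untreated samples, while the GO samples lay below them. UGT2B4 was at 10.9 ± 1.83 CPM (0.90) and UGT2B7 2.72 ± 0.179 (0.54), and neither was called, though UGT2B4 had 1.02 and was called without GO-Rg3-DOX replicate 1. UGT2A3 had 4.75 ± 0.925 and UGT2B10 1.44 ± 0.225 CPM. Under TMM 9 of 10 UGT genes were above 0, and 8 with library totals alone. The UGT sum was 29.7 ± 3.54 CPM, and 24.5 ± 4.79 per library total beside 19.6 ± 0.308 in untreated cells.

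SULT1A2, a phenol sulfotransferase, had the largest log2 fold change of the 43 members after GO-Rg3-DOX, with 0.503, 0.448 and 0.212 CPM in untreated cells and 1.44, 1.90 and 1.41 after treatment (2.05 ± 0.31, edgeR, adjusted p = 2.80e-05). SULT1A3, which sulfates dopamine, had 0.423, 0.256 and 0.377 CPM and then 0.742, 0.791 and 0.915 (1.19 ± 0.34, edgeR, adjusted p = 0.0062). Leaving out any of untreated replicate 1, 2 or 3 or GO-Rg3-DOX replicate 1, 2 or 3 ended this call, with adjusted p of 0.0101 to 0.0269. SULT1A1 had 58.6 ± 2.15 CPM (0.58), SULT2A1 24.3 ± 1.54 (0.53), SULT1C4 21.1 ± 0.360 (-0.32) and SULT1E1 8.77 ± 1.98 (0.09). The SULT sum was 96.9 ± 2.94 CPM in untreated cells and 121 ± 3.48 after GO-Rg3-DOX. Per library total it was 106 ± 3.80 and 99.6 ± 11.2, a treated mean that was lower by less than its SD. After GO it was 101.6 ± 1.16, and 102.3 ± 11.3 per library total.

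Spearman's rho between log2 fold change and GC content was 0.36 across the 16622 genes after GO-Rg3-DOX. With a GC content offset 14 of the 43 members rose and none fell, beside 1912 of the 17092 genes called higher and 2515 lower. CYP26C1, CYP27A1, CYP2D6, CYP2S1 and CYP2R1 were then not called, and CYP2C19, SULT1B1, UGT2B10, UGT2B11, UGT2B4 and UGT2B7 rose in addition. Without the count filter CYP7A1 and CYP8B1 were called higher on the few counts given above, and CYP26C1, CYP27A1, CYP2B6, CYP2S1 and UGT2B17 fell short of a threshold.

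Genes that serve these enzymes were read from 3 lists. Of 7 tested electron donors and heme enzymes, CYB5A, cytochrome b5, fell after GO from 66.2 ± 0.552 to 31.1 ± 3.43 CPM (log2 fold change -1.09, edgeR, adjusted p = 6.29e-06). After GO-Rg3-DOX 2 of the 7 rose, CYB5R3, the reductase of cytochrome b5, by 1.31 and FDXR, the reductase of the mitochondrial P450 chain, by 1.21 on the log2 scale. Of all genes 2.62% were called lower after GO and 12.6% higher after GO-Rg3-DOX, and lists of 7 or 8 genes are too short to set against these shares. POR, the reductase of microsomal P450 enzymes, had 146 ± 12.1, 180 ± 16.5, 154 ± 40.03 and 273 ± 9.52 CPM in untreated, GO, GO-Rg3 and GO-Rg3-DOX cells and was not called. Among 8 genes of cosubstrate supply BPNT1, which clears the by-product of sulfation, fell after GO from 75.7 ± 1.89 to 32.6 ± 4.84 CPM (-1.21, edgeR, adjusted p = 3.34e-06), and none was called after GO-Rg3-DOX. UGDH, which makes UDP-glucuronic acid, had 289 ± 9.28 CPM in untreated cells and 252 ± 4.69 after GO. With a GC content offset CYB5A, CYB5R3 and FDXR had -0.81, 0.91 and 0.73, and with library totals alone CYB5R3 and FDXR 0.89 and 0.79, none of them called.

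Of 14 tested transcription factors of drug metabolism genes, 8 fell and none rose after GO-Rg3-DOX, with a median log2 fold change of -1.03, beside 18.2% of all genes called lower. FOXA1, a pioneer factor of liver genes, went from 62.3 ± 1.14 to 5.24 ± 0.0666 CPM (-3.57 ± 0.10, edgeR, adjusted p = 2.63e-12). The bile acid receptor gene NR1H4 went from 58.8 ± 1.28 to 22.5 ± 1.74 CPM (-1.38), NR5A2, an activator of bile acid genes, from 49.7 ± 1.55 to 20.01 ± 0.969 (-1.31), FOXA2 from 46.9 ± 1.16 to 18.7 ± 0.431 (-1.32) and NR0B2, a repressor of bile acid synthesis, from 1.92 ± 0.193 to 0.734 ± 0.146 (-1.37). NR1I3, the xenobiotic receptor CAR, went from 3.04 ± 0.583 to 1.45 ± 0.153 CPM (-1.07), and -0.90 without untreated replicate 3, which ended its call. HNF4A, the hepatocyte master regulator, went from 363 ± 13.5 to 180 ± 26.6 CPM (-1.02) and ONECUT1 from 12.3 ± 0.937 to 5.94 ± 0.620 (-1.04). With RLE scaling these last 2 had -0.94 and -0.98, short of the fold threshold. HNF4A also fell short without untreated replicate 1 or GO-Rg3-DOX replicate 2 or 3 (-0.99, -0.98 and -0.93), and ONECUT1 without untreated replicate 1 or GO-Rg3-DOX replicate 1 (-0.98 in each). With a GC content offset NR1H4, NR5A2 and ONECUT1 had -0.92, -0.83 and -0.90 and were not called. After GO none of the 14 was called, as no log2 fold change with an adjusted p under 0.01 passed 1. Below the fold threshold, NR1H4 and FOXA1 were lower (-0.86 and -0.62). FOXA2, HNF4A and NR1I2 were higher (0.68, 0.63 and 0.46). Each of these had an adjusted p under 0.01 in edgeR's test.

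Of the 10 hepatocyte markers AFP fell after GO from 12287 ± 139 to 5836 ± 1128 CPM (log2 fold change -1.07, and -0.95 and not called without GO replicate 1). After GO-Rg3-DOX APOA1, APOB and SERPINA1 rose by 1.08, 1.09 and 1.28 on the log2 scale and HNF4A fell. Of all genes 2.62% were called lower after GO, and 12.6% higher and 18.2% lower after GO-Rg3-DOX. APOA1 had 0.97 without GO-Rg3-DOX replicate 1 and APOB 0.99 without untreated replicate 1, which ended those calls. With library totals alone APOA1, APOB, SERPINA1 and COL3A1 had 0.65, 0.67, 0.84 and 0.96 and were not called, and with a GC content offset AFP and APOA1 had -0.79 and 0.52. The summed level of the 10 markers of other cell types was 1.39 to 1.63 CPM in untreated samples and 3.24 to 4.28 after GO-Rg3-DOX, where COL1A1 and COL3A1 rose, while PECAM1 had no count in any sample. COL3A1 reached 2.29 ± 0.270 CPM. COL1A1, at 0.598 ± 0.230 CPM, lost its call without untreated replicate 1 or 3 or GO-Rg3-DOX replicate 2 (adjusted p of 0.0122, 0.0129 and 0.0144). The part of these markers in the members' changes was not tested.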

How the data were processed

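RNA of 12 Huh7 samples in 4 groups of 3, assigned by their labels, was sequenced by the authors from stranded mRNA libraries and run through their NGI-RNAseq pipeline (GRCh37), with featureCounts as the counter. Raw counts were deposited for 63677 genes. Annotation release and strand setting are not given in the sources used here. The labels do not say that samples of a group came from separate cultures, so p-values measure the spread between these samples. Totals of 27802871 to 38877420 counts limit precision by counting error.

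The 17092 genes that reached 10 counts in 3 or more samples were fitted in 1 model of 4 groups by edgeR 4.0.16 (quasi-likelihood test, TMM) in R 4.3.3, with Benjamini-Hochberg adjustment over all genes tested, and called at an adjusted p below 0.01 and a log2 fold change beyond 1, after the study's thresholds. Tables used Python 3.11.15 and pandas 2.3.3. The fit was tested on simulated data. Alternatives were RLE scaling, library totals, no filter, DESeq2 1.42.0, the replicate number as a block, a loess offset (span 0.5) for GC content, known for 97.3% of genes, with and without the block, a fit of just the 6 samples in question, leave-one-out fits, and an adjusted p below 0.05. CPM per kb used exon lengths of GENCODE v44 lifted to GRCh37, and promoter windows came from RefSeq.

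Genes named were every called member, members with a mean of at least 10 CPM, called genes of the lists, and up to 2 others per family or list. Members and lists were chosen with earlier results of these data known. An item among the members is not reported here by name, and counts over members include it.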

Additional observations from a re-analysis of the deposited data

How the results depend on the processing

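Over the called members, 133 of 168 results under other settings stayed called in the same direction and 35 were no longer called, and 24 calls were lost on leaving out each sample in turn. None changed sign. The number of members called after GO was 6, and 3 with a GC content offset, with or without the replicate block. After GO-Rg3-DOX it was 13, and 3 with library totals alone, where the median of all genes was -0.47 in place of -0.06. For GO-Rg3 against GO it was 2, and 2 to 4 on leaving out each sample. Without the count filter the gene listed as UGT1A8 was called as well, lower after GO (7 members called) and higher with GO-Rg3 than with GO (3 called). With the filter its log2 fold changes were -1.17 and 1.26 (edgeR, adjusted p = 0.0163 and 0.0166), not called. Leaving out each sample gave 4 to 6 after GO and 9 to 12 after GO-Rg3-DOX, and no member was called after GO-Rg3 under any setting. No p-value was adjusted for the 4 comparisons together.

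The labels give the groups the same replicate numbers without saying what they stand for. Deviations of same-numbered samples from their group means had a mean correlation of 0.091 (-0.024 to 0.253). The mean of -0.045 for other numbers follows from it, because deviations within a group cancel, and adds nothing. Of the 12 samples, 10 correlated best with their own number, a hint from the data and not from the design. With the replicate block the members called were 6 after GO, 0 after GO-Rg3, 12 after GO-Rg3-DOX and 2 for GO-Rg3 against GO, the call lost being CYP26C1. Members with a mean under 1 CPM rest on few counts per sample. Of the called members these were CYP26C1, CYP17A1, SULT1A3, SULT1A2, UGT2B17 and UGT2B10, and SULT1A2 had 19, 14 and 9 counts in the untreated samples.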
